A study of Rattus norvegicus with 36 samples.

Results

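The genes of the motile ciliary axoneme were taken by symbol as *Foxj1* together with every gene whose symbol begins with Dnah, Dnai, Dnal, Rsph, Tekt, Cfap or Drc, and were followed through the thyroid glands of 36 rats. They comprised 50 of the 30367 non-control probes on the array and represented 49 of the 15154 genes that could be named, *Cfap68* having 2 probes. Of the 90 genes in the RefSeq annotation of the rat genome that meet the same rule, 41 had no probe matched by accession and were not analysed here. Adult male Sprague Dawley rats received an intravenous injection of iodine-131, a beta- and gamma-emitting radionuclide that the thyroid takes up, and the glands were collected after 24 h. The lowest activities were 9 and 88 kBq, followed by 170 and 260, then 340 and 760, and the highest were 1300 and 4700 kBq, with 4 rats at each, while 4 mock-treated rats served as controls. The groups of main interest were those given 170 kBq and 340 kBq, for which the estimated absorbed doses to the thyroid were 0.11 and 0.22 Gy. Total RNA from each gland was hybridised to 1 single-colour Agilent array. All signals are given as log2 of the processed intensity minus the 75th percentile of the same array on the log2 scale, called the relative log2 signal, so that 0 marks a probe at that percentile. Rats were injected group by group in order of activity, with the controls last, so the order of handling and the activity cannot be told apart.

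Motile cilia beat because dynein motors slide neighbouring microtubule doublets of the axoneme against each other. Heavy, intermediate and light chains make up the dynein arms, radial spokes and the nexin-dynein regulatory complex govern when the arms act, and tektins and many CFAP proteins line or stabilise the doublets. Foxj1 is the transcription factor that switches on this programme in multiciliated cells such as those of the airway, which lies next to the thyroid, and RFX factors act beside it. Thyroid follicular cells bear a primary cilium, a sensory organelle that shares intraflagellar transport and tubulin-binding proteins with motile cilia. Several proteins named CFAP also act outside motile cilia.

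Promoters of 6 axonemal genes are shown because these genes carry the main patterns described below. *Rsph10b*, *Rsph9*, *Tekt4*, *Cfap210* and *Drc3* differed without overlap between arrays rich and poor in thyroid follicular transcripts, and *Dnali1* had the smallest unadjusted p at both 170 and 340 kBq. Each sequence is the 250 bases before the transcript start in the RefSeq promoter table for assembly GRCr8, written 5′ to 3′ on the strand of the gene, with matches to the searched motifs in capitals. Starts in that table are those of a transcript, and the windows of *Rsph10b*, *Cfap210* and *Drc3* lie partly or wholly within the annotated span of the gene.
Rsph10b: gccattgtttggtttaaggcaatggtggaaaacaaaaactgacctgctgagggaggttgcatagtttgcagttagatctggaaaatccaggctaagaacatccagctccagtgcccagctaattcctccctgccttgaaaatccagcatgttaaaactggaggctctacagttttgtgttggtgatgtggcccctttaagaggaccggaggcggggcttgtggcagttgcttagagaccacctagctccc
Rsph9: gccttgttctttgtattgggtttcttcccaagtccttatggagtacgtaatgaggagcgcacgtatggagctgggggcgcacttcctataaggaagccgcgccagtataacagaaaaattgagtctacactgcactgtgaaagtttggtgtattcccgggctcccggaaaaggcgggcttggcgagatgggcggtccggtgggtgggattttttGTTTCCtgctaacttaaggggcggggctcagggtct
Tekt4: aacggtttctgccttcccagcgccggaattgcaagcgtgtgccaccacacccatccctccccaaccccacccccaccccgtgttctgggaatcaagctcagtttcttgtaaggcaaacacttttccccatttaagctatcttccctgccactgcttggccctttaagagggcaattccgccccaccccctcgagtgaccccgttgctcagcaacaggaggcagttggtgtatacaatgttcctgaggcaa
Cfap210: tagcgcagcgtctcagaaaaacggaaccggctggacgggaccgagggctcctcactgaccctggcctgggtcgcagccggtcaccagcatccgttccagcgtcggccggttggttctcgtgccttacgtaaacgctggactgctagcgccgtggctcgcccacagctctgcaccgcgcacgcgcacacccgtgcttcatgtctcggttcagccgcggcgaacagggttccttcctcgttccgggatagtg
Drc3: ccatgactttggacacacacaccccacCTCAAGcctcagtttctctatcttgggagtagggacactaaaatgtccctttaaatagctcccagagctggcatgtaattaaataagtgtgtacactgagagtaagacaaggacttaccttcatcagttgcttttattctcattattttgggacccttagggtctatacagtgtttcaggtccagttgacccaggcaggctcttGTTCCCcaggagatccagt
Dnali1: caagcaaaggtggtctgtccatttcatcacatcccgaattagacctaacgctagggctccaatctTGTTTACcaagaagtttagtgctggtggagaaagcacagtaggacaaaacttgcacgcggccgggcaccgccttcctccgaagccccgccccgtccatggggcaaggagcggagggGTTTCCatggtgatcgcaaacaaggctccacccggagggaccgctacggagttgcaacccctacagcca
They lie at chr12:15788828-15789077 on the minus strand for *Rsph10b*, chr9:22337431-22337680 on the plus strand for *Rsph9*, chr10:14992034-14992283 on the plus strand for *Tekt4*, chr3:74962498-74962747 on the minus strand for *Cfap210*, chr10:45658485-45658734 on the plus strand for *Drc3* and chr5:142611971-142612220 on the minus strand for *Dnali1*. Motifs were searched on both strands as the RFX half-site GTTNCC, its stricter form GTTGCC, which lies within the first, the paired RFX X-box, in which GTTNCC is followed after 2 bases by GGNAAC, the forkhead core TGTTTAC and the core CTCAAG bound by Nkx2-1, a thyroid and lung transcription factor. *Rsph9* held GTTTCC 36 bases before the start and *Drc3* held GTTCCC at 19 bases and CTCAAG at 223 bases. In *Dnali1*, GTTTCC lay 69 bases and TGTTTAC 185 bases before the start. The windows of *Rsph10b*, *Tekt4* and *Cfap210* held none of these letters. Promoters were given for 41 of the 49 genes, and a gene with several was counted once if any of them matched. Of these genes, 24 held GTTNCC, which was 58.5% against 41.9% of all 27457 genes in the table, and 11 held GTTGCC, 26.8% against 10.8%. The X-box was found in *Cfap20dc* and *Cfap298* (4.88% against 0.382%), the forkhead core in *Cfap20*, *Cfap43*, *Dnali1* and *Tekt3* (9.76% against 3.54%) and CTCAAG in *Cfap126*, *Cfap43*, *Drc12* and *Drc3* (9.76% against 14.4%). These are matches of letters only.

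Before the genes themselves, the samples were checked against markers of the labelled tissue. The 13 thyroid follicular markers, of which *Tg* (thyroglobulin) was the most abundant, split the arrays into separate clusters. Their mean relative log2 signal lay between 0.93 and 2.42 on 18 arrays and between -5.25 and -1.06 on the other 18. Arrays of the first kind numbered 3 of 4 in the controls, 2 of 4 at 170 kBq and 1 of 4 at 340 kBq, and every other group held both kinds. In a bulk sample, fewer cells of a type and less RNA per cell cannot be told apart. Markers of squamous epithelium were high on some follicle-poor arrays, with means of 5.26 in control rat 3, 6.67 in 170 kBq rat 4, 5.54 in 340 kBq rat 1 and 5.73 in 340 kBq rat 3. The array of 340 kBq rat 4 stood apart in another way, with 91.0% of probes well above background by the scanner software against 62.6 to 79.0% on the other arrays, and the counts of members at 340 kBq and the bounds that rest on it are given with and without it.

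Signals of the axonemal genes were mostly low. Of the 50 probes, 21 were well above background on all 36 arrays, 27 on 1 to 35 arrays and 2 (*Dnai3* and *Rsph14*) on none. Each array had between 25 and 43 of the 50 well above background, with a median of 33, and the most were on the array of 340 kBq rat 4. By role, all 36 arrays measured 12 of 24 CFAP probes, 2 of 5 dynein intermediate chains (*Dnai4* and *Dnai7*), 2 of 3 light chains (*Dnal1* and *Dnal4*), 1 of 4 regulatory complex genes (*Drc3*), 2 of 5 radial spoke genes (*Rsph6a* and *Rsph9*) and 2 of 7 tektin probes (*Tekt4* and *Tektip1*). *Dnah1*, an inner arm heavy chain and the only heavy chain with a matched probe, was well above background on 30 arrays. The median SD between rats of the same group was 0.70 for the axonemal genes and 0.67 for all probes.

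*Foxj1*, located at chr10:102065163-102069945 in GRCr8, was well above background on only 10 of 36 arrays. Its relative log2 signal ranged from -8.63 to -4.24 with a median of -7.46. In the control rats it was -8.61, -5.92, -7.76 and -6.54, and in the 170 kBq rats -7.69, -7.87, -7.08 and -6.58. The 340 kBq rats gave -8.21, -4.24, -6.97 and -5.59, with the highest value of the series in rat 2 and a low value in rat 1. All 3 groups overlapped. Means were -7.21 ± 1.21 in controls, -7.30 ± 0.59 at 170 kBq and -6.25 ± 1.71 at 340 kBq (SD, n = 4). In a two-sided exact permutation test over the rats, the log2 difference from controls was -0.10 at 170 kBq (p = 0.914) and 0.95 at 340 kBq (p = 0.429), and the 340 kBq group exceeded the 170 kBq group by 1.05 (p = 0.343). The smallest p such a test allows with 4 against 4 rats is 0.0286. The direction at 170 kBq turned with single rats, reaching 0.33 without control rat 2, and was 0.07 after normexp background correction. At 340 kBq the difference ranged from 0.28 without 340 kBq rat 2 to 1.60 without 340 kBq rat 1, and was 0.21 after quantile normalisation and 0.18 in the authors' matrix. In the other 6 groups the mean lay between -7.58 (760 kBq) and -7.16 (1300 kBq), with exact permutation p-values from 0.657 to 0.971 against controls. *Foxj1* was well above background in 2 of 4 controls, 1 of 4 rats at 170 kBq, 2 of 4 at 340 kBq and none of 4 at 4700 kBq.

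**Figure D1:**
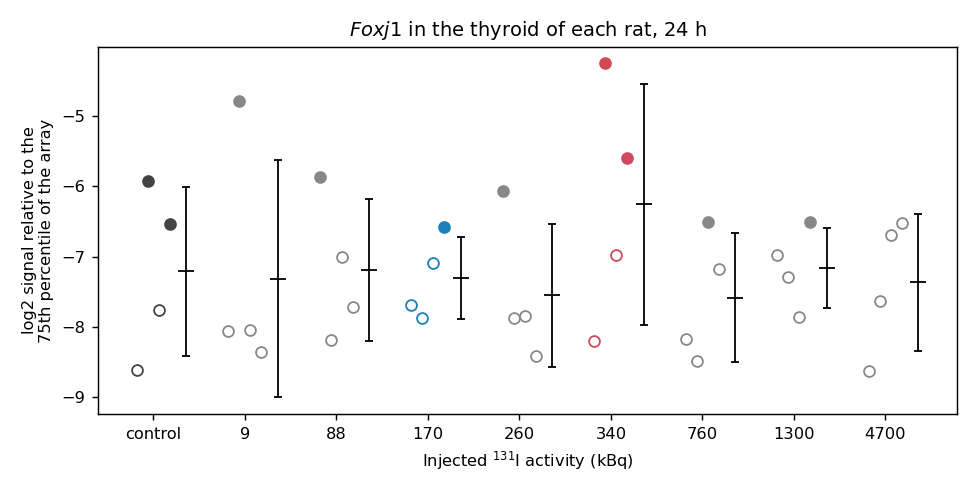
Relative log2 signal of *Foxj1* (y axis) in each rat by injected activity (x axis), with filled points well above background, open points not well above background, and bars for the mean ± SD of 4 rats. Most points are open and all groups overlap, and the highest rat (-4.24) belongs to the 340 kBq group.

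The rats with the highest *Foxj1* differed in their markers of other tissues. In 340 kBq rat 2 (*Foxj1* -4.24) the mean over 11 airway secretory and basal cell markers was 0.09 and the follicular mean was -4.24, whereas in 9 kBq rat 2 (*Foxj1* -4.78) the follicular mean was 1.35 and the mean over 6 lymphoid markers was 0.67. *Foxj1* is also known in lymphocytes. In 340 kBq rat 4 (-5.59) the airway mean of -4.47 lay within the control values. Its lymphoid mean of -4.78 lay below that of control rat 2 and above those of the other controls. In 88 kBq rat 1 (-5.86) the lymphoid mean was 0.06 and the airway mean -2.26, above those of all controls. Control rat 2 (-5.92) had a lymphoid mean of -0.12 while the other controls had lymphoid means between -6.38 and -6.07. Airway markers were highest of all in 170 kBq rat 4, with a mean of 1.84, and there *Foxj1* was -6.58. *Bpifa1*, a secreted airway protein, was 7.27 in that rat and 6.54 in 340 kBq rat 2. For the airway list as a whole, with *Tp63* the most abundant gene and every one of its 11 probes well above background on at least some arrays, 5 genes at 170 kBq and 4 at 340 kBq were higher than in controls at an unadjusted p under 0.05, against 2.16 and 13.2% of all probes, and the medians of the log2 ratios were 1.40 and 2.42 against 0.12 and 0.31 for all probes. The list means were -4.94, -4.58, -3.07 and -4.42 in the controls, -5.39, -3.07, -3.16 and 1.84 at 170 kBq, and -2.12, 0.09, -1.59 and -4.47 at 340 kBq. The part of airway tissue in the values below was not tested. Of 12 listed regulators of multiciliated cells, 4 had a probe. *Tp73*, which acts upstream of *Foxj1*, was well above background on 18 arrays, *Deup1*, with a role in centriole amplification, on 2, and *Rfx2* on all 36. None of the 4 passed an unadjusted p under 0.05 at 170 or 340 kBq.

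Whether the axonemal genes moved with *Foxj1* between rats of the same group was examined with limma, by regressing each probe on *Foxj1* with a separate mean for each of the 9 groups. None of the 49 other member probes had a slope past an adjusted p of 0.01, the share over all probes being 0.0231%. At an unadjusted p under 0.05, 13 members (26.5%) had a positive slope against 10.8% of all probes, and 2 (4.08%) a negative slope against 8.93%. The median slope was 0.11 log2 units per log2 unit of *Foxj1* for the members and -0.01 for all probes. The largest slopes were 0.68 for *Tekt4* (SE 0.27, limma adjusted p = 0.163), 0.64 for *Rsph10b* (SE 0.35, adjusted p = 0.298) and 0.58 for *Dnai4* (SE 0.18, adjusted p = 0.0761), and the lowest was -0.53 for *Dnah1* (SE 0.26, adjusted p = 0.254). With normexp background correction 1 of the 49 passed with a positive slope, against 1.72% of all probes, and the slope of *Rsph10b* became -0.13. Median slopes on *Foxj1* were 1.07 for the lymphoid markers, 1.03 for parathyroid, 0.90 for C cells, 0.72 for follicular and 0.64 for airway markers, and -2.15 for squamous, -0.59 for fast muscle, -0.54 for slow muscle and -0.51 for cartilage markers and -0.41 for the regulators of multiciliated cells, with no gene of these lists past the threshold. The 7 probes that did pass were *Atp2a3*, *Nlrp1a*, *Ccr7*, *Akna*, *Adcy7*, *Srcin1* and *Gpr132*, none of them axonemal. No probe passed without 9 kBq rat 2, 88 kBq rat 1 or control rat 2, whereas 0.78% had a positive slope without 340 kBq rat 2. So few probes passed, with *Foxj1* well above background on 10 arrays, that the lack of a member among them cannot decide whether the members follow *Foxj1*. The set is called by its rule, axonemal genes, and not after a ciliated cell type.

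More members varied together along the follicular markers. When each probe was regressed on the mean of the 13 follicular markers with a separate mean per group, 21 of the 50 member probes (42%) had a positive slope past a limma adjusted p of 0.01 against 18.4% of all probes, and 2 (4%) had a negative slope against 24%. At an unadjusted p under 0.05 the counts were 21 and 4, or 42% and 8%, against 23.5 and 33.9% of all probes, the 13 markers themselves being left out. This regression was chosen after the data had been seen, and the 75th percentile of the array enters both sides of it. Within either cluster of arrays few slopes passed. With only the 18 arrays above 0, *Rsph9* alone of the 49 genes passed, with a slope of 1.02 (limma adjusted p = 0.00696). Of all probes, 1.09% had a positive and 0.0329% a negative slope there. With only the 18 arrays below 0 no member passed, against 0% of all probes. For 5 of the 50 member probes (10%) all 18 arrays above 0 exceeded all 18 below 0, against 3.38% of all probes, and for none the reverse, against 0.671%. Of the 21 positive members, 14 were among the 21 probes well above background on every array and 7 among the 27 measured on some.

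Radial spoke heads gave the steepest slopes. *Rsph9*, a head protein encoded at chr9:22337681-22350515, changed by 0.71 log2 units per log2 unit of the follicular mean (SE 0.05, limma adjusted p = 4.64e-12), *Rsph10b* by 0.70 (SE 0.04, adjusted p = 7.87e-15) and *Rsph1* by 0.28 (SE 0.09, adjusted p = 0.00649). *Rsph9* was 1.37, 0.20, -2.28 and 1.92 in the controls, 0.50, 1.31, -3.72 and -1.62 at 170 kBq, and -2.21, -3.71, -2.70 and 1.0 at 340 kBq. Each group thus held rats above 0 and rats far below it, and the ratios to controls were -1.18 and -2.21 on the log2 scale, the latter with an SE of 1.60. *Rsph10b*, at chr12:15741097-15788887, was -1.47, -1.93, -4.90 and -0.89 in the controls, -0.67, -1.76, -5.12 and -5.89 at 170 kBq, and -5.23, -2.81, -4.84 and -1.43 at 340 kBq. Its log2 ratios to controls were -1.06 and -1.28, both with an SE of 1.52. The low control in both genes was rat 3, the one control with a follicular mean below 0 (-3.68). Over all groups, the 18 arrays above 0 had *Rsph9* between 0.20 and 2.04 (median 1.40) and the others between -4.17 and -1.46 (median -2.60). For *Rsph10b* the ranges were -1.93 to -0.16 (median -1.28) and -6.14 to -2.81 (median -5.02). *Rsph1* was less tied to this split, with its highest value, 0.68, in 88 kBq rat 1. *Rsph6a*, known mainly from sperm, had a slope of -0.02 and *Rsph14* was not well above background on any array.

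**Figure D2:**
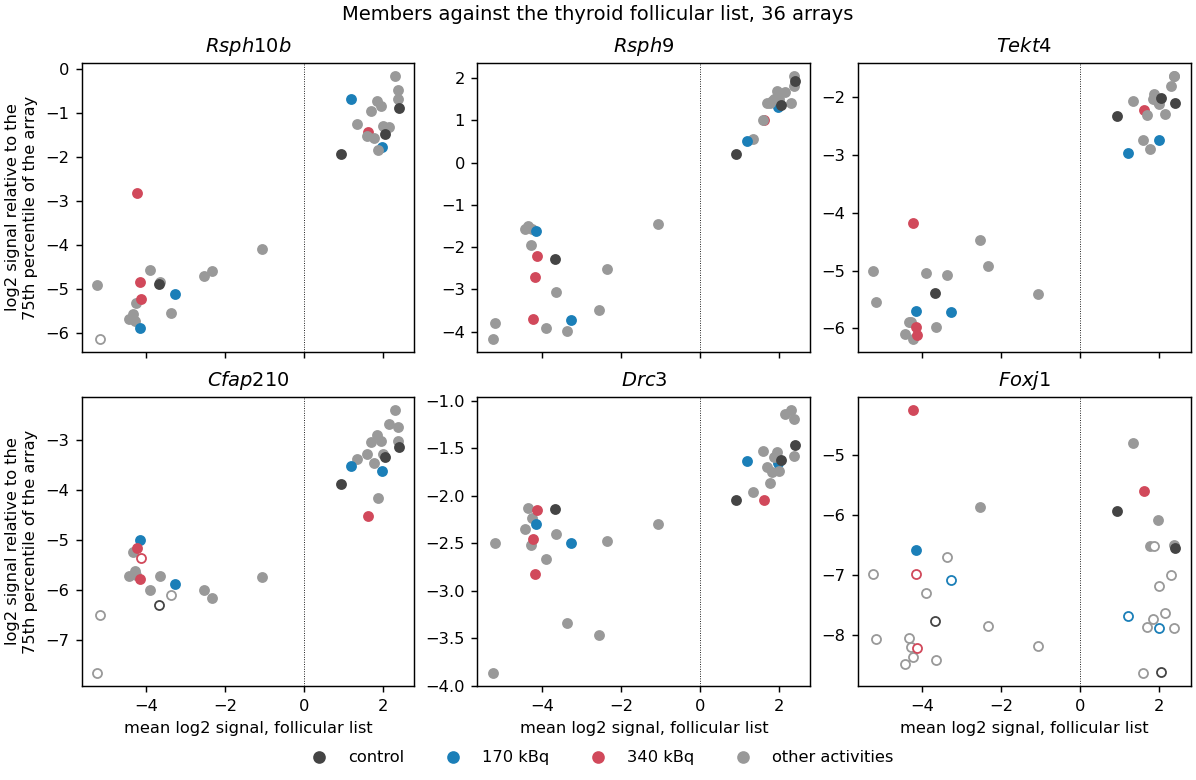
Relative log2 signal of selected axonemal genes (y axes) against the mean of 13 thyroid follicular markers on the same array (x axis), 1 point per rat, filled where well above background. *Rsph10b*, *Rsph9* and *Tekt4* fall into a high and a low cloud that do not overlap, while *Foxj1* spans a similar range on both sides.

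Among the tektins, *Tekt4* (chr10:14992284-14997460) and *Tekt2*, filament proteins inside the doublets, followed the follicular mean with slopes of 0.56 (SE 0.03, limma adjusted p = 1.05e-13) and 0.45 (SE 0.04, adjusted p = 2.52e-09). *Tekt4* was -2.01, -2.33, -5.39 and -2.11 in the controls, -2.97, -2.75, -5.71 and -5.70 at 170 kBq, and -6.11, -4.18, -5.98 and -2.23 at 340 kBq. The values of every group fell into a high and a low set, between -2.97 and -1.64 on the 18 arrays above 0 and between -6.18 and -4.18 on the others. Among the follicle-poor arrays the highest *Tekt4* and the highest *Rsph10b* were both in 340 kBq rat 2, the rat with the highest *Foxj1*. The other genes without overlap were not highest there. In that rat *Rsph9* was -3.71, *Cfap210* -5.15 and *Drc3* -2.45, against highest follicle-poor values of -1.46, -5.01 and -2.12. *Tekt1* (-0.04), *Tekt3* (-0.02), *Tektl1* (-0.02) and *Tektip1* (-0.00061) had slopes near 0 that did not pass, and *Tekt5* a slope of -0.11 (adjusted p = 0.00799), though *Tekt5* was well above background on 1 array.

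Of the regulatory complex genes, *Drc3* (slope 0.17, SE 0.03, adjusted p = 2.03e-06) and *Drc12* (0.12) passed, and *Drc1* (0.04) and *Drc7* (0.06) did not. *Drc3* lay between -2.04 and -1.10 on the 18 follicle-rich arrays and between -3.86 and -2.12 on the others. The dynein intermediate chain *Dnai4* had a slope of 0.36 (SE 0.04, adjusted p = 2.53e-09) and *Dnai7* one of 0.09, while *Dnai1* and *Dnai2* of the outer arm had 0.08 and -0.01 and did not pass, and *Dnai3*, not measured above background anywhere, had -0.08 (adjusted p = 0.00681). *Dnai4* was -3.30, -2.70, -5.55 and -3.31 in the controls and -6.13, -4.90, -5.40 and -3.87 at 340 kBq. The light chain *Dnal4* passed with 0.06, and *Dnal1* (-0.05) and *Dnali1* (0.01) did not. *Dnah1* had a slope of 0.04 with an SE of 0.10, and its values spread widely within groups, from -7.36 to -1.93 at 170 kBq.

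Of the 24 CFAP probes, 11 passed, all with positive slopes. The steepest were *Cfap210* (0.46, SE 0.04, limma adjusted p = 5.47e-11) and *Cfap45* (0.36, SE 0.03, adjusted p = 9.57e-11), both proteins of the inside of the doublet microtubules. *Cfap210* lay between -4.52 and -2.41 on the follicle-rich arrays and between -7.64 and -5.01 on the others. The other CFAP genes that passed were *Cfap161* (0.21), *Cfap77* (0.20), *Cfap418* (0.19), *Cfap20* (0.18), *Cfap300* (0.16), *Cfap141* (0.15), *Cfap119* (0.14), *Cfap36* (0.10) and *Cfap410* (0.09). *Cfap20* is a doublet junction protein also needed by primary cilia, and *Cfap410* and *Cfap418* are known for roles in photoreceptor cilia. Slopes of *Cfap52* (0.03), *Cfap298* (0.03), *Cfap97* (0.02), *Cfap126* (0.05) and *Cfap43* (-0.0027) were small and did not pass, and neither did the 8 remaining probes, of *Cfap68* (2 probes), *Cfap95*, *Cfap97d1*, *Cfap20dc*, *Cfap206*, *Cfap276* and *Cfap107*, which were well above background on 13 arrays or fewer. *Foxj1* itself had a slope of 0.10 (adjusted p = 0.221).

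**Figure D3:**
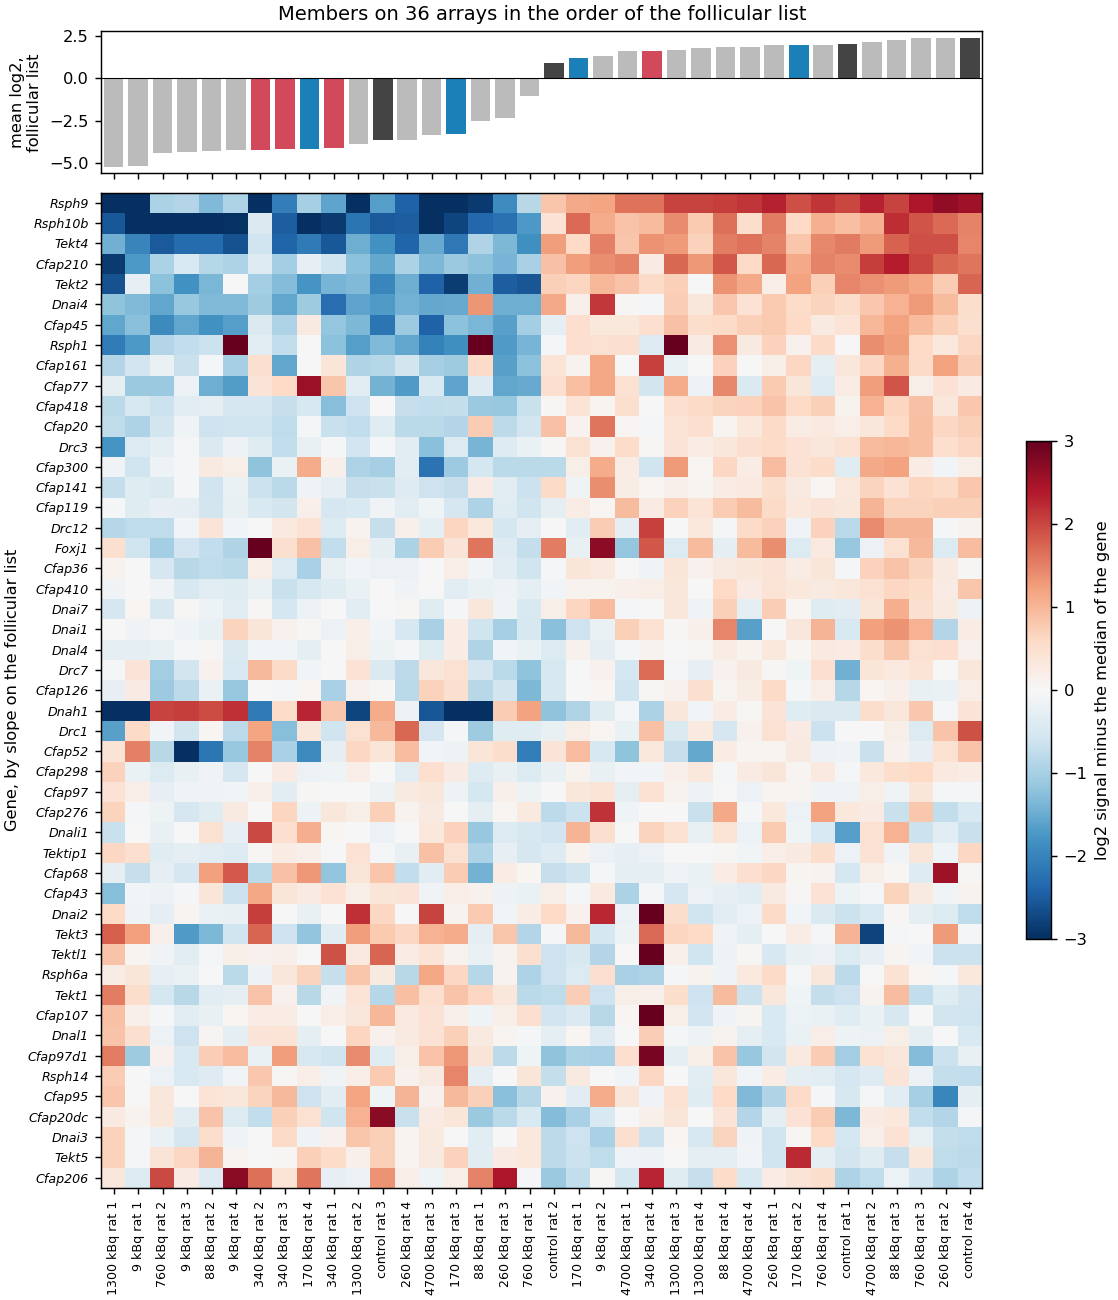
Relative log2 signal of the 49 axonemal genes (rows, ordered by their slope on the follicular mean) on 36 arrays (columns, ordered by that mean), each gene centred on its median and limited to between -3 and 3 for colour. The top genes change together near the middle of the columns, where the follicular mean passes 0, and most others show no such step.

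Slopes were also computed within slides, each of the 5 slides holding 6 to 8 arrays of 4 to 6 groups. For the 5 genes whose values did not overlap between the 2 sets of arrays, the choice of genes fixes a positive sign, and only the size is of interest. It ranged from 0.53 to 0.77 for *Rsph10b*, from 0.58 to 0.74 for *Rsph9*, from 0.42 to 0.65 for *Tekt4*, from 0.32 to 0.49 for *Cfap210* and from 0.09 to 0.22 for *Drc3*. For *Foxj1* it ranged from -0.11 to 0.15 and so changed sign between slides.

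Related gene lists were read beside the members, with 18.4% of all probes positive and 24% negative on the follicular mean. Of 26 other axoneme and dynein assembly genes with a probe, 9 had a positive and 2 a negative slope on the follicular mean, the steepest being *Dnaaf1* (0.58), a dynein assembly factor, *Efhc2* (0.57), *Ropn1l* (0.57), which encodes a radial spoke protein, and *Spef2* (0.42). *Iqub* (-0.16) and *Dnaaf6* (-0.09) were the negative ones, and *Dnaaf6* was not well above background on any array. Of 23 genes of intraflagellar transport and the BBSome, complexes of primary and motile cilia alike, 16 were positive and none negative. All 6 markers of C cells, the calcitonin cells of the thyroid, were positive, with *Calca* at 1.97, as were all 3 parathyroid markers. Negative slopes were found for 5 of 6 cartilage, 3 of 5 smooth muscle, 2 of 7 fast muscle and 2 of 5 squamous markers, of which the fast muscle share lies near that of all probes, and none of 6 slow muscle or 6 lymphoid markers passed in either direction. Of the airway markers, 1 of 11 was positive. *Rfx2* had a slope of -0.37 (limma adjusted p = 4.1e-12). Its sign was opposite to that of the member probes that passed with a positive slope, and the same as that of *Tekt5* and *Dnai3*. Many genes moved along this axis, as the share of all probes shows, and what set the follicular content of a sample was not tested.

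The comparisons of the groups with controls gave few differences. With an adjusted p below 0.01 and a change of 1.5-fold or more required in limma, no member differed from controls at 170 kBq, at 340 kBq or in any other group, and neither did any of the 30367 probes (0%). The 170 and 340 kBq groups also showed no such probe when compared with each other. Both comparisons share the same 4 controls. The median log2 ratio of the members was 0.04 at 170 kBq and 0.03 at 340 kBq, with 28 members higher and 22 lower in each case, whereas the median of all probes was 0.12 and 0.31. At an unadjusted p under 0.05, 4 members were higher at 170 kBq, 8% against 2.16% of all probes, and none was lower (0.201% of all probes). At 340 kBq, 8 were higher, 16% against 13.2%, and 1 was lower, 2% against 0.438%. In a test for any difference among the 9 groups, 2 members (4%) had an unadjusted p under 0.05 against 2.69% of all probes. These were *Dnali1* and *Tekt1*, both with a limma adjusted p of 0.989, and no member passed an adjusted p of 0.01 against 0.0132% of all probes.

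*Dnali1*, the light intermediate chain of the inner dynein arms, at chr5:142603132-142611970, showed the lowest p-values in both groups. Its relative log2 signal was -8.12, -7.03, -6.63 and -7.14 in the controls, -5.44, -6.60, -5.77 and -5.37 at 170 kBq, and -6.40, -4.48, -5.95 and -5.79 at 340 kBq. The values of both irradiated groups lay above those of the controls, but the order rests in part on values not above background, since control rats 1 to 3, 170 kBq rat 2 and 340 kBq rat 1 were not well above background and the closest pair (170 kBq rat 2 and control rat 3) was among them. The probe was well above background in 1 of 4 controls and in 3 of 4 rats of each irradiated group, and on 20 of 36 arrays overall. Means were -7.23 ± 0.63, -5.79 ± 0.56 and -5.66 ± 0.83 (SD, n = 4). The means of the other 6 irradiated groups, from -6.91 at 760 kBq to -6.27 at 88 kBq, also lay above that of the controls, with overlap. The log2 ratio to controls was 1.44 (SE 0.40, unadjusted p = 0.0013, adjusted p = 0.996 in limma) at 170 kBq and 1.57 (SE 0.40, unadjusted p = 0.000528, adjusted p = 0.171 in limma) at 340 kBq. The difference between these groups was 0.14 (SE 0.40, unadjusted p = 0.739 in limma). No overlap with controls, in the higher direction, was found for 1% of all probes at 170 kBq and 4.04% at 340 kBq, and 1 and 2 members met it (2% and 4%). The size of the ratio changed with the scale, the 340 kBq value being 0.81 after quantile normalisation, 0.75 in the authors' matrix and 0.69 after normexp correction, and the 170 kBq value 0.53 after normexp. On the slides that held both groups, the difference from controls was 1.52 and 1.01 at 170 kBq and 2.55 and 2.02 at 340 kBq. Each rests on 1 or 2 irradiated rats and 1 or 2 controls, and the value of 2.55 on 1 of each. *Dnali1* did not follow the follicular mean (slope 0.01, SE 0.04).

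*Tekt1* was the other gene higher in all 340 kBq rats than in all controls, and was so at 88 and 260 kBq too. It was -5.88, -6.04, -6.14 and -5.81 in the controls, with little spread, and -5.38, -4.41, -5.14 and -5.12 at 340 kBq. At 170 kBq it was -4.53, -5.39, -4.41 and -6.12, so rat 4 lay within the controls. Means were -4.72 ± 0.59 at 88 kBq, -4.97 ± 0.52 at 260 kBq and -5.97 ± 0.15 in the controls (SD, n = 4). No overlap in the higher direction was found for 2 members (4%) at 88 kBq against 1.67% of all probes and for 1 (2%) at 260 kBq against 0.823%. The log2 ratios were 0.86 (SE 0.39, unadjusted p = 0.0386, adjusted p = 0.996 in limma) and 0.96 (SE 0.39, unadjusted p = 0.0216, adjusted p = 0.278 in limma). Within slides the difference at 170 kBq was -0.14 on slide 1 and 1.08 on slide 2, and at 340 kBq 1.63 on slide 2 and 0.64 on slide 5. These, too, rest on 1 or 2 irradiated rats and 1 or 2 controls, and the value of 1.63 on 1 of each.

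**Figure D4:**
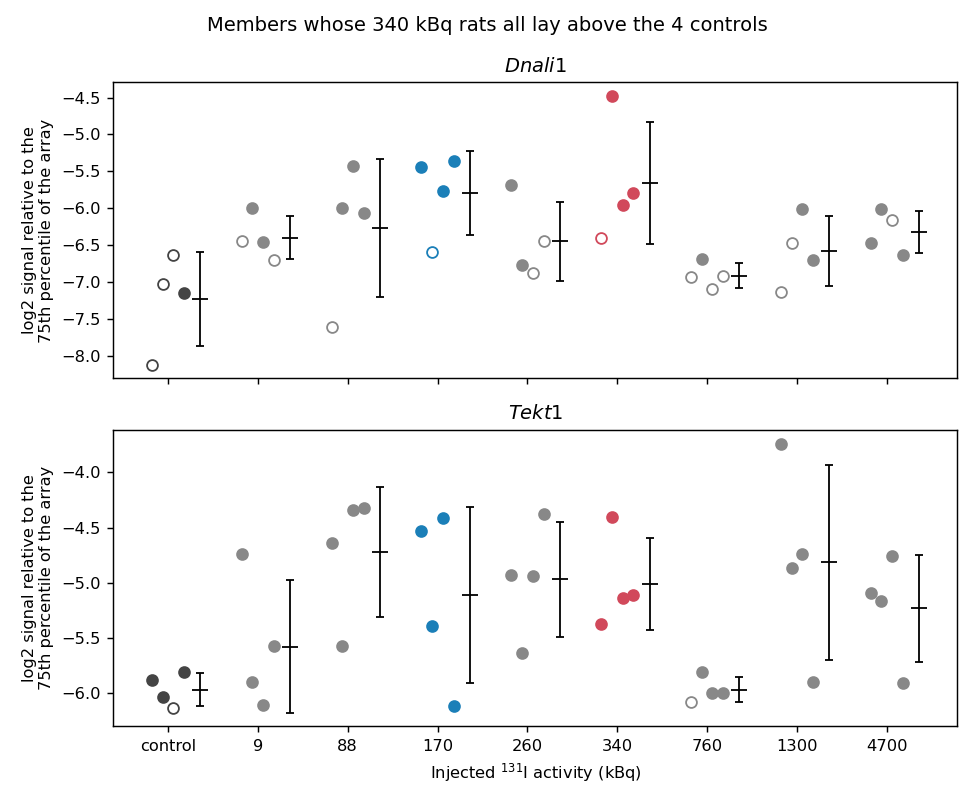
Relative log2 signal of *Dnali1* and *Tekt1* (y axes) in each rat by injected activity (x axis), filled where well above background, with the mean ± SD of 4 rats. For *Dnali1* all points at 170 and 340 kBq lie above those of the controls, of which 3 are open, and for *Tekt1* this holds at 88, 260 and 340 kBq.

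The other members higher at 170 kBq by unadjusted p were *Tekt5* and *Rsph14*. *Tekt5* was well above background in 1 of the 4 irradiated rats and no control, and *Rsph14* in no rat, so neither a ratio nor a fold is given for either. At 340 kBq the further members were *Drc7*, *Tektl1*, *Dnai2*, *Cfap97d1*, *Cfap107* and *Dnal1*. *Drc7*, a regulatory complex gene, was -7.84, -6.88, -6.83 and -6.07 in the controls, -6.42, -6.53, -5.94 and -6.48 at 170 kBq, and -6.42, -5.44, -5.83 and -4.73 at 340 kBq. All groups overlapped, with a log2 ratio at 340 kBq of 1.30 (SE 0.39, unadjusted p = 0.00233, adjusted p = 0.201 in limma), and of 1.01 without rat 4. *Drc7* was well above background in 2 of 4 controls, the lowest not among them, and in 3 of 4 rats at 340 kBq. *Dnal1*, an outer arm light chain measured on every array, had a log2 ratio of 0.58 (SE 0.26), and of 0.46 without rat 4. Controls were not well above background for *Tektl1*, *Cfap97d1*, *Dnai2* and *Cfap107*, so for these only a bound holds. It sets the 340 kBq mean against the lowest signal well above background on each control array. Where the gene's own signal on a control array was higher than that, its own signal was used instead. *Tektl1*, a tektin-like protein, was at least 2.12-fold higher with 2 of 4 irradiated rats measured, *Cfap97d1* at least 1.96-fold, *Dnai2* at least 1.47-fold and *Cfap107* at least 1.07-fold, each of these 3 measured in rat 4 only. *Tektl1* was -6.77, -8.54, -8.52 and -2.83 at 340 kBq, and rat 4 set its mean. Without rat 4 no bound remained for any of these 4 genes, since *Cfap97d1*, *Dnai2* and *Cfap107* were then not well above background in any rat of either group and the mean of *Tektl1* (-7.94) lay below the floor of the controls.

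In the lower direction, *Cfap410* was -0.95, -1.36, -1.28 and -0.45 in the controls and -1.66, -1.5, -1.95 and -1.09 at 340 kBq, a log2 ratio of -0.54 (SE 0.26, unadjusted p = 0.0455, adjusted p = 0.351 in limma). *Cfap418* did not overlap between groups, at -1.12, -1.19, -1.22 and -0.40 in the controls and -2.50, -1.72, -1.91 and -1.22 at 340 kBq, although control rat 3 and 340 kBq rat 4 agree to 2 decimals. Its log2 ratio was -0.86 (SE 0.48, unadjusted p = 0.0847 in limma). No overlap in the lower direction was found for 0.304% of all probes at 340 kBq and for 1 member (2%), and for 0.244% of all probes and no member at 170 kBq. Both genes followed the follicular mean, which was -2.73 ± 2.90 at 340 kBq and 0.43 ± 2.82 in the controls (SD, n = 4), with overlap. With that mean as a covariate and all rats kept, 8 members instead of 9 passed an unadjusted p under 0.05 against controls. Of all probes, 10.68% had such a p in this fit, against 13.7% in the main fit. All 8 members were higher, so that *Cfap410* no longer passed. Its log2 ratio in this fit is not given, and the cause of its lower signal at 340 kBq was not tested. The median log2 ratio of the members was 0.23 instead of 0.03, beside 0.16 for all probes.

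**Figure D5:**
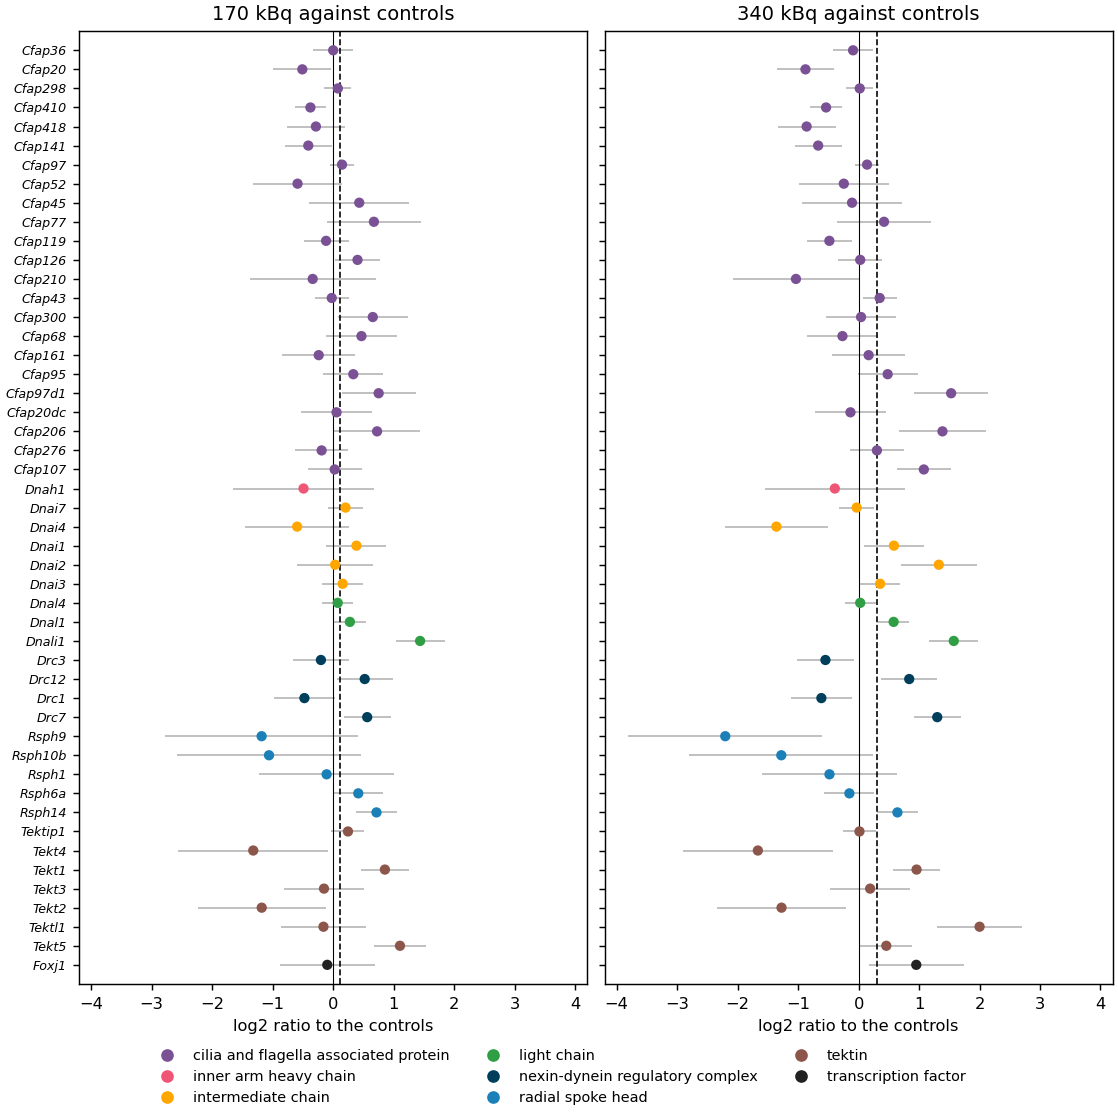
Log2 ratio to controls (x axis) of each axonemal gene (y axis) at 170 kBq and at 340 kBq, points with bars of 1 SE, the dashed lines marking the median of all probes (0.12 and 0.31). Most bars cross the dashed lines, and *Dnali1* lies to the right of them in both groups.

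Single rats weighed on these counts. The array of 340 kBq rat 4, with the most probes above background, gave the highest value of all 36 arrays for 8 of the 49 genes, namely *Cfap107*, *Cfap161*, *Cfap97*, *Cfap97d1*, *Dnai2*, *Drc12*, *Drc7* and *Tektl1*. This count is given without the share of all probes, so it is not read as particular to the members. Without that array, 5 members instead of 9 differed from controls at an unadjusted p under 0.05, 3 of them higher, and none differed between 340 and 170 kBq. The count at 340 kBq also fell to 5 without 340 kBq rat 2 or control rat 4, and rose to 15 without control rat 3. At 170 kBq the count of 4 became 1 without control rat 2 and 2 without control rat 1 or 170 kBq rat 3. Between 340 and 170 kBq it became 5 without 340 kBq rat 1. These counts without single rats are given without the shares of all probes, so they are not read as particular to the members. *Cfap107*, *Dnai2* and *Tektl1* were the 3 members higher at 340 than at 170 kBq, 6% against 5.18% of all probes, and none was lower (0.211%). For *Cfap107* and *Tektl1*, 2 of 50 members (4%), every rat at 340 kBq was above every rat at 170 kBq, as was the case for 3.08% of all probes. No rat at 170 kBq was well above background for either gene, and at 340 kBq 1 rat was for *Cfap107* and 2 were for *Tektl1*, so these orders lie mostly among values not above background. The direction at 340 kBq further depended on scaling, since the median of all probes moved from 0.31 to near 0 when arrays were quantile-normalised. After that normalisation 2 of 6 members with an unadjusted p under 0.05 were higher, in the authors' matrix 2 of 6, with median centring 4 of 8 and after normexp 12 of 13. In either direction, 7.35, 7.34, 10.6 and 15.5% of all probes had such a p under these 4 settings, against 13.7% in the main fit. Another array with many high members was 88 kBq rat 3, highest for 7 genes (*Cfap210*, *Cfap36*, *Cfap45*, *Dnai7*, *Dnal4*, *Drc3* and *Rsph10b*), with 340 kBq rat 2 highest for *Cfap43*, *Dnali1* and *Foxj1*. For these arrays, too, the share of all probes is not given.

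Genes of related ciliary lists were compared in the same way. Of the 26 other axoneme and dynein assembly genes, none at 170 kBq was higher than in controls at an unadjusted p under 0.05. At 340 kBq 5 of the 26 genes were higher by that measure, against 13.2% of all probes. *Zmynd10*, a dynein assembly factor measured on every array, was among these 5. It was -3.84, -3.80, -3.44 and -2.90 at 340 kBq and -4.88, -3.55, -4.15 and -4.70 in the controls, with overlap. The median log2 ratios of the list were 0.11 and 0.14. Of the 23 intraflagellar transport and BBSome genes none passed in either group, and their median log2 ratios were -0.16 and -0.35.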

How the data were processed

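Gene expression was measured in 36 thyroid glands, 4 from each of 8 injected groups and 4 controls, on 1 array per rat, grouped by sample title. The authors deposited output of Agilent Feature Extraction 10.7.3.1 (per the file headers), whose processed signal is a background-subtracted intensity on a linear scale. They also deposited a matrix of normalised intensities (Partek stands in the submitters' processing notes). That matrix was put on the log2 scale here and used as an alternative only. Control and outlier spots were left out and spots of 1 probe averaged. RefSeq accessions (assembly GRCr8) named 17998 of 30367 probes. Where a gene had 2 probes, both were tested and the one with the higher mean stood for the gene. The 75th percentile of intensity was 1564 to 4288 across arrays, 99 probes lacked a value on some array, and 4 arrays per group limit the precision.

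Limma 3.58.1 in R 4.3.3 was fitted across all probes and arrays with 1 mean per group and Benjamini-Hochberg adjustment over all probes, calling those with an adjusted p below 0.01 that changed 1.5-fold or more. *Foxj1* was compared by exact permutation. Genes were named by rule as *Foxj1*, the 3 members of each role with the highest mean, the 3 with the smallest p at 170 and at 340 kBq, the 3 with the largest and the 3 with the smallest slope on *Foxj1*, and leading genes of each list, and any others were named after their values had been seen. Code was tested on simulated data. Alternatives were quantile normalisation, median centring, normexp with offset 50, the authors' matrix, a filter on dim probes, slide and replicate blocks, array weights, covariates and leaving out rats. The members and gene lists were chosen with earlier results of these data known, and the follicular regression after the data were seen. A gene of the related ciliary lists is not reported here.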

Additional observations from a re-analysis of the deposited data

Results flagged for a closer look

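Within groups of 4 rats, the gap between the most extreme rat and its nearest neighbour was compared with the range of the group by Dixon's criterion. Of 72 groups tested over 24 genes, 5 had such a rat, and chance gives about 1 in 20. *Cfap36* was -0.37 in 170 kBq rat 4 with the nearest rat at 0.79, and *Dnai7* was -1.33 in 340 kBq rat 3 with the nearest at -0.80. The other 3 were in control rat 3, where *Tekt4* was -5.39 (nearest control -2.33), *Tekt5* was -7.87 (nearest -9.13) and *Tektl1* was -6.94 (nearest -9.09). Control rat 3 was the only control with a follicular mean below 0 (-3.68) and had a squamous mean of 5.26. *Tekt5* and *Tektl1* were not well above background in any control.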

How the results depend on the processing

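No member passed the adjusted threshold in the comparisons of 170 or 340 kBq with controls or with each other under any alternative run. Counts of members at an unadjusted p under 0.05 moved. At 170 kBq the count of 4 became 2 with quantile normalisation, median centring, normexp or the authors' matrix and 1 with the dim-probe filter or only the groups compared. Under these settings 1.57 to 2.18% of all probes had such a p, against 2.36% in the main fit. At 340 kBq the count of 9 became 3 with the filter (with 6.33% of all probes) and 22 with array weights (10 higher, with 37.0% of all probes). It became 16 with the share of probes above background as a covariate (8 higher, with 25.8% of all probes). Between 340 and 170 kBq the count of 3 became 0 with the filter or only the groups compared, 5 with the slide or the follicular covariate and 7 with array weights. The share of all probes was 5.39% in the main fit, 0.860% with the filter, 1.48% with the slide, 5.24% with the covariate and 14.9% with array weights. Leaving out 1 rat gave 1 to 4, 5 to 15 and 0 to 5 members, here without the shares of all probes. With the replicate number as a block the counts were 4, 8 and 2, with 2.45, 13.6 and 5.41% of all probes. Same-numbered rats did not deviate together (median r of -0.03), so the numbers do not pair them. For the log2 difference of *Foxj1* at 170 kBq, normexp gave 0.066 and leaving out 1 rat -0.56 to 0.33, and at 340 kBq leaving out 1 rat gave 0.28 to 1.60.

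Slopes on *Foxj1* passed for 1 member with normexp and 1 with array weights, both positive, against 1.72 and 0.589% of all probes. Normexp turned *Rsph10b* to -0.13, *Tekt5* to 0.14 and *Dnai3* to 0.26. Members with a positive slope on the follicular mean numbered 18 to 21 when 1 rat was left out, against 17.5 to 19% of all probes. They numbered 16 to 20 under the other settings over all arrays, against 13.7 to 23.9% of all probes. On the arrays above 0 the count was 1, against 1.09%, and on those below 0 it was 0, against 0%. Negative slopes numbered 0 to 3 without 1 rat, against 21.4 to 28.4% of all probes. They numbered 0 with quantile normalisation, the authors' matrix, the filter, the replicate block and the background covariate, against 19.1 to 29.7% of all probes. In either cluster they numbered 0, against 0.0329% of all probes above 0 and 0% below 0. With the slide there was 1, against 24.1%, and with normexp there were 5, against 31.9%. Signs turned for *Drc12* with normexp (-0.00034), for *Tekt5* in the authors' matrix (0.0051), on the arrays above 0 for *Dnai7* (-0.17) and *Tekt5* (0.57), and on those below 0 for *Dnal4* (-0.021), *Rsph9* (-0.014) and *Dnai3* (0.0078). The cause was not tested, except that the filter and the single clusters tested fewer probes or arrays. Low signals limit *Foxj1* and the 29 probes not above background on every array.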
